A study of Mus musculus with 14 samples.

Results

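The genes described here are the class II odorant receptor (OR) genes numbered from Olfr987 to Olfr1280, with symbols that hold nothing but Olfr and a number, that were listed in both tables of normalized counts. There were 215 of them among 51211 gene symbols shared by the tables, beside 901 other OR genes with a plain number, 111 of which ran from Olfr828 to Olfr986. The tables came from RNA-seq of the whole olfactory epithelium of 14 mouse pups at postnatal day 5, in 2 separate experiments. In the Kir2.1 experiment, 3 pups that carried both OMP-IRES-tTA and tetO-Kir2.1-IRES-tauLacZ, here called Kir2.1 mice, were compared with 3 controls heterozygous for OMP-IRES-tTA alone, so both groups carried the driver allele. In the PEA experiment, 4 wild type pups exposed to phenylethylamine (PEA) from postnatal day 0 to day 5 were compared with 4 unexposed wild type pups. The submitters' records give a C57BL/6 background for all mice, whereas the methods of the study describe the exposed pups as CD-1. The records label the transgenic pups Kir2.1-Off, although no doxycycline is described for pups of this age and their Kcnj2 level was high (given below).

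Each olfactory sensory neuron expresses 1 allele of 1 OR gene, chosen from a very large family. Class II receptors make up most of the mammalian family, whereas the class I receptors, related to those of fish, sit in a single cluster on another chromosome. An OR is a G-protein-coupled receptor of the neuron's cilia and also guides the neuron's axon to its glomeruli in the olfactory bulb. Kcnj2 encodes Kir2.1, an inward rectifier potassium channel that holds neurons near rest, and the transgene drives it from the Omp locus, which is active in mature olfactory sensory neurons. PEA is a volatile amine of predator urine that mice avoid and that is detected mainly by trace amine-associated receptors, not by the ORs counted here. Within this OR group, Olfr1019 is a known receptor for the fox odor trimethylthiazoline.

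All 215 genes were on chromosome 2 (GRCm38) and none lay on the chromosome of the class I cluster. A run of 209 genes lay between positions 85330779 and 90403897, a stretch of 5.07 Mb, and the other 6 lay between 111230360 and 111326003, after a gap of 20.8 Mb. The coding sequences were of nearly one length, from 909 to 1038 bases, whereas the exons summed to between 918 and 9655 bases because the untranslated ends differed. The members were also close relatives of each other. For 50 of them another OR coding sequence was at least 95% identical, and the closest pairs of members were Olfr1049 and Olfr1051 (98.7%), Olfr1057 and Olfr1062 (98.2%) and Olfr1080 and Olfr1082 (98.1%). Windows of 40 bases, the read length of the Kir2.1 libraries, were found in no other transcript for a median of 94.8% of a member's exonic sequence, with a lowest share of 54.9% in Olfr1049. For windows of 150 bases, the read length of the PEA libraries, the median was 100% and the lowest share 89.0%.

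A promoter sequence from RefSeq (GRCm38.p6) was at hand for 178 members, but for only 28 did its start lie within 100 bases of the start in the gene annotation. The 250 bases before the RefSeq start are shown for the 4 members that had an unadjusted p under 0.05 in the Kir2.1 comparison, all lower, and whose starts lay within 30 bases of each other in both annotations. The sequences are Olfr1182 (chr2:88449122-88449371, minus strand), Olfr1199 (chr2:88760486-88760735, minus strand), Olfr1205 (chr2:88829507-88829756, plus strand) and Olfr1213 (chr2:88980268-88980517, minus strand). Each is written 5′ to 3′, and capitals mark motif matches on either strand. The first motif searched was the core of the O/E site bound by the Ebf factors, written CCCNNGGG. A homeodomain core, written TAATTA, was searched as well. The last was the TATA box, written TATAAA.
Olfr1182: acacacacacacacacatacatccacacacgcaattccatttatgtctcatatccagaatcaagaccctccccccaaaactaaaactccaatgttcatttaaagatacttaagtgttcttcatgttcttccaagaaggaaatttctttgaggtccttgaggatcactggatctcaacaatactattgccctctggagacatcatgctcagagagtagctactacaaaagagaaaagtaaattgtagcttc
Olfr1199: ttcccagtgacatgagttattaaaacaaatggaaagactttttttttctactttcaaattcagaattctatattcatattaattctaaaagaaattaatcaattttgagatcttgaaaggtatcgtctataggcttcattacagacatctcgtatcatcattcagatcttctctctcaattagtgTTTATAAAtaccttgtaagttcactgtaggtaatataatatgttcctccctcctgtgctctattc
Olfr1205: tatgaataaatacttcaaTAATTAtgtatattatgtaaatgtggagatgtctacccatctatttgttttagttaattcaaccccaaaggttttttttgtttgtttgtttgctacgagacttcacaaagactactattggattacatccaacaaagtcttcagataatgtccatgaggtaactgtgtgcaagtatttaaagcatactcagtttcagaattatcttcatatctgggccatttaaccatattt
Olfr1213: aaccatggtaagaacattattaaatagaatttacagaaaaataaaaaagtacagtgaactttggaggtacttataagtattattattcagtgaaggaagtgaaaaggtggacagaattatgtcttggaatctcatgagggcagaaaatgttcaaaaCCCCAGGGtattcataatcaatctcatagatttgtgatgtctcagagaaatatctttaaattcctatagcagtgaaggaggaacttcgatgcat

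The match in Olfr1213 was CCCCAGGG, whose first base lay 94 bases before the RefSeq start. In Olfr1199 the marked TTTATAAA holds TATAAA on both strands, overlapping, and began 65 bases before the start. In Olfr1205 the TAATTA began 232 bases before the start, and no motif was found in the window of Olfr1182. Among the 28 members with matching starts, CCCNNGGG was present in 3 (10.7%), TAATTA in 8 (28.6%) and TATAAA in 12 (42.9%). Over all 178 members with a RefSeq promoter the shares were 2.25%, 24.2% and 53.4%. Among 32851 RefSeq promoters of the same length the shares were 11.8%, 4.84% and 12.4%. The sets were not matched for base composition and other OR genes were not counted apart, so no enrichment is read from these shares. A match describes letters only and does not show a bound site.

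The deposited values were normalized counts, gene-level Salmon estimates scaled with DESeq2 within each experiment, and 1 read was worth about 1 unit. The total per mouse divided by its commonest low value put the depth at about 32.5 to 35.4 M reads in the Kir2.1 experiment and 9.76 to 15.1 M in the PEA experiment. The median member was at only 21.5 to 42.4 normalized counts in any mouse. The transgene was evident in its target. Kcnj2 was at 985.9, 1074 and 1274 in the controls and at 17926, 18530 and 24193 in the transgenic pups, higher by 4.18 ± 0.14 on the log2 scale (SE; limma, Benjamini-Hochberg adjusted p = 0.000157). In the Kir2.1 mice all 12 markers of mature olfactory sensory neurons were lower, with a summed level of 106865 to 120099 against 146056 to 160454, whereas the 6 markers of immature neurons overlapped between groups (68027 to 88335 against 78475 to 84362). All 4 blood markers were higher, with sums of 19957 to 33172 against 10820 to 19581. All 4 markers of respiratory ciliated epithelium were higher as well, with sums of 13984 to 20318 against 11058 to 13511. Vomeronasal receptor genes set 1 control mouse of the Kir2.1 experiment apart, with a sum of 11713 against 1620 to 1697 in the transgenic mice, and in the PEA experiment they ranged from 644 to 9894 in controls and from 577 to 7231 in exposed pups. The part of these shifts in the OR values below was not tested.

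Nearly the whole group was transcribed at this age. Olfr1248 alone was at 0 in every mouse. A mean of at least 10 normalized counts, the minimum for testing, was reached by 188 members in the Kir2.1 experiment and 190 in the PEA experiment, by 184 in both and by neither experiment in 21. Per kilobase of exon, the median level over members was 12.8 in the controls of the Kir2.1 experiment, with a highest level of 64.5, and 9.92 in the PEA controls, with a highest level of 73.3. The values were scaled within each experiment, with totals of 33.0 to 34.2 M per mouse in the Kir2.1 and 11.5 to 12.5 M in the PEA experiment. Levels of the 2 experiments are therefore not on 1 scale. No gene dominated, since the 20 highest members held 27.8% and 26.3% of the summed counts of these control groups.

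The most abundant members per kilobase differed between the control groups. In the Kir2.1 experiment they were Olfr1213 (64.5), Olfr1228 (62.9), Olfr1015 (61.6), Olfr1006 (60.1) and Olfr1133 (60.0) and neighbours in this order did not differ beyond their spread over mice. Olfr1228 was at 256.9, 166.6 and 191.4 normalized counts in the 3 controls, and Olfr1006 at 89.9, 127.0 and 76.8. In the PEA controls the leading genes were Olfr1176 (73.3), Olfr1032 (39.6), Olfr1065 (38.6), Olfr1102 (36.9) and Olfr1018 (35.8). Olfr1176 stood above the rest there, at 162.4, 224.8, 170.2 and 270.3 normalized counts. In the controls of the Kir2.1 experiment it was at 54.9 per kilobase, on that experiment's own scale. Over the 215 members the control levels per kilobase of the 2 experiments had a Spearman correlation of 0.667, given as a description because both share the exon lengths and the libraries differed in read length and RNA selection. Between mice of 1 group, the median SD of log2(value + 1) over tested members was 0.37 in the controls and 0.38 in the Kir2.1 mice, and 0.52 and 0.39 in the PEA controls and exposed pups.

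The first comparison asked how OR transcripts differed when spontaneous activity of the sensory neurons was silenced. The summed level of the 215 genes was 11284, 11300 and 10868 in the controls (11151 ± 245, SD, n = 3) and 8138, 8154 and 6942 in the Kir2.1 mice (7745 ± 695, SD, n = 3). Every Kir2.1 mouse was below every control, as the plot of summed levels by mouse shows. In bulk tissue, fewer neurons of a type and less RNA per neuron cannot be told apart. The other OR genes were lower too, and the group's share of all OR counts was 13.4 to 14.7% in controls and 12.7 to 13.5% in Kir2.1 mice, ranges that meet.

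**Figure D1:**
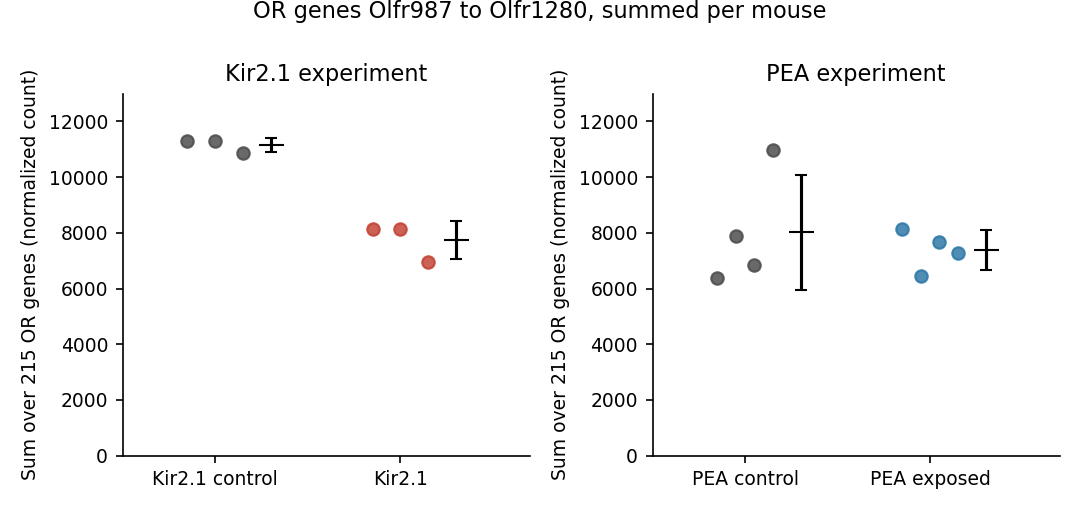
Sum of the normalized counts of the 215 OR genes Olfr987 to Olfr1280 (y axis, normalized count) in each mouse, for the Kir2.1 experiment (left) and the PEA experiment (right). Points are mice, and the bar beside them is the mean with the SD. The 3 Kir2.1 mice (6942 to 8154) sit below the 3 controls, whereas the PEA groups overlap and PEA control 4 (10971) stands above the other controls.

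Of the 188 members tested, 153 had a fitted log2 fold change below 0, against 48.8% of all genes tested, and 35 were above. The median log2 fold change was −0.57 over the members, −0.42 over the 822 other OR genes tested and 0.01 over all genes. With limma and a Benjamini-Hochberg threshold of 0.05, 1 member was lower and none was higher, where 0.278% of all genes were called lower and 0.0757% higher. An unadjusted p under 0.05 was reached by 62 lower members, or 33.0% of those tested, against 6.2% of all genes and 24.2% of other OR genes. In the higher direction 2 members reached it, 1.06% against a background of 4.93%, and both had a control mean under 10, so that they were tested only through the Kir2.1 group where they are high. Of the 62 lower members, 4 likewise had a Kir2.1 mean under 10. In 74 members, 39.4%, all Kir2.1 mice were below all controls, a pattern seen in 9.04% of all genes and 29.7% of other OR genes, and in 3 members all were above, against 7.26%. Of the 74 members, 6 had a Kir2.1 mean under 10, and so did 11 of the 153 fitted below 0. They were tested only through the controls, where they are high. Without control 1, the mouse with vomeronasal transcripts, an unadjusted p under 0.05 was reached by 37 lower members and 1 higher one. The share over all genes was not taken in that fit. The members passed the filter on their mean over both groups, and 27 of 215 were not tested.

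Olfr1213 (chr2:88972055-88980281, minus strand, annotated there as Gm13762) was the member that passed. It stood at 185.5, 128.1 and 191.4 normalized counts in controls and at 60.2, 61.2 and 63.8 in Kir2.1 mice. It fell by 1.41 ± 0.20 on the log2 scale (SE, n = 3 and 3; limma, Benjamini-Hochberg adjusted p = 0.0478), and the exact permutation test over mice gave p = 0.1, the smallest that 3 against 3 allows. The call was marginal. It was lost without any 1 of the 6 mice, with adjusted p-values from 0.0621 to 0.177 by limma, and under several other settings. Its nearest relative, Olfr1219, shared 82.5% of the coding sequence and was at 71.6, 106.5 and 69.6 in controls and 22.2, 73.1 and 77.6 in Kir2.1 mice, where the groups overlapped.

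The next members by p-value were lower in every Kir2.1 mouse without passing. Olfr1140 (chr2:87743752-87747581) was at 56.1, 77.1 and 69.2 in controls and 21.6, 20.1 and 15.5 in Kir2.1 mice, with a log2 fold change of −1.77 ± 0.26 (limma, Benjamini-Hochberg adjusted p = 0.0524). Olfr1246 (chr2:89586141-89593157), with the lowest fold change of all members, was at 57.7, 62.9 and 102.2 against 17.0, 24.2 and 17.1 (−1.86 ± 0.31; limma, Benjamini-Hochberg adjusted p = 0.0781). Both were at a low level in the transgenic mice, where counting error is large.

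Among the more abundant receptors, Olfr1258 was at 153.3, 165.2 and 112.7 in controls and 73.0, 66.8 and 76.7 in Kir2.1 mice (log2 fold change −0.97 ± 0.19). Olfr1015, one of the 5 highest genes per kilobase, was at 159.7, 148.8 and 150.1 against 95.9, 75.6 and 56.7 (−1.03 ± 0.21). Both pairs of groups were clearly separated, and the limma adjusted p-values (Benjamini-Hochberg) were 0.129 and 0.142. The other 3 genes with small p-values have a close copy. Olfr1204 (43.0, 43.4 and 72.4 against 15.8, 23.4 and 16.1) is 96.7% identical to Olfr1202, and Olfr1197 (71.9, 64.5 and 49.0 against 14.7, 30.5 and 21.7) is 97.0% identical to Olfr1196. Olfr1251 (63.8, 69.3 and 56.0 against 27.3, 34.5 and 19.97) is 96.1% identical to Olfr1249. The way Salmon divided reads between such copies was not checked here, and their values are less certain for it. Of these copies, Olfr1202 and Olfr1196 were also lower at an unadjusted p under 0.05.

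The members whose promoters are shown above, apart from Olfr1213, had smaller differences. Olfr1205 was at 49.2, 30.2 and 56.99 in controls and 14.7, 19.2 and 15.4 in Kir2.1 mice (log2 fold change −1.38 ± 0.33). Olfr1182 was at 83.1, 39.2 and 58.5 against 30.3, 29.6 and 29.2 (−0.93 ± 0.31), and Olfr1199 at 29.4, 25.8 and 16.8 against 13.0, 13.9 and 11.4 (−0.83 ± 0.34). These 3 were picked after their values were seen. None passed the adjusted threshold, and in each the lowest control was above the highest Kir2.1 mouse.

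Against the trend, 3 members were higher in every Kir2.1 mouse than in any control. Olfr1055 was at 4.85, 7.83 and 4.24 in controls and 23.5, 16.9 and 21.4 in the transgenic pups, with a log2 fold change of 1.73 ± 0.40 (limma, Benjamini-Hochberg adjusted p = 0.181). Olfr1076 was at 6.25, 15.4 and 5.47 against 26.4, 20.3 and 16.2 (1.23 ± 0.47; limma, Benjamini-Hochberg adjusted p = 0.400). Both had a control mean below the minimum for testing and are given as a description. Olfr1037, chosen after its values were seen, was at 33.3, 42.6 and 47.1 against 58.5, 51.2 and 62.3 (0.48 ± 0.23; limma, Benjamini-Hochberg adjusted p = 0.505). All 3 lay below the median share of unique sequence for reads of 40 bases, at 88.5%, 70.4% and 74.6%. Olfr1178 had the widest spread within a group. It was at 124.2, 117.5 and 342.4 in controls and at 112.1, 125.2 and 8.80 in Kir2.1 mice, and its log2 fold change of −1.73 ± 0.98 moved to between −2.37 and −0.53 when a mouse was left out.

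**Figure D2:**
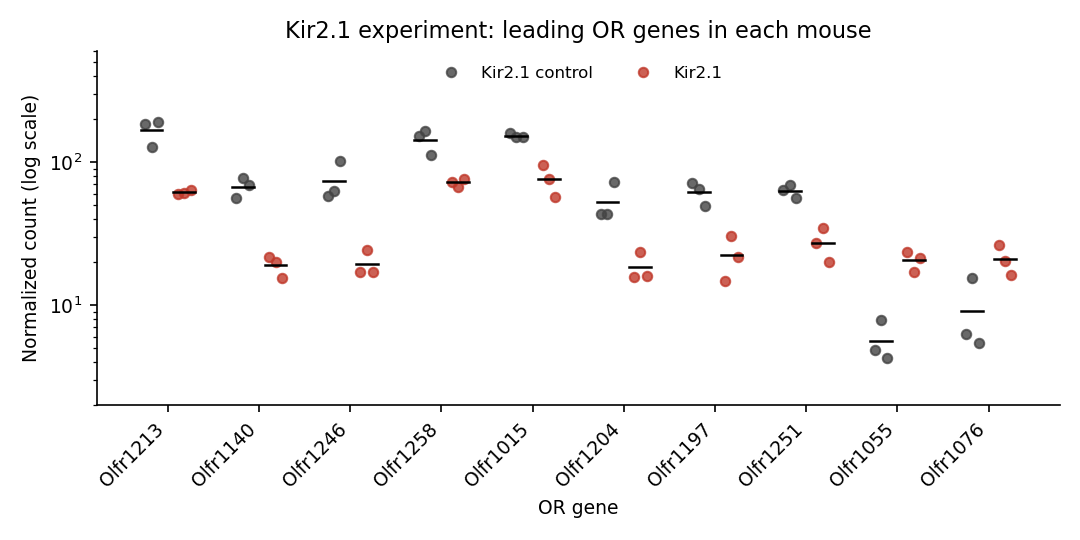
Normalized counts (y axis, log scale) of the 8 members with the smallest p-values and the 2 with the largest increases in the Kir2.1 experiment (x axis), in 3 control and 3 Kir2.1 mice. Points are mice and bars are group means. The groups do not overlap in any of the 10 genes, which were picked by these same values. Only Olfr1055 and Olfr1076 are higher in the Kir2.1 mice, and both had a control mean under 10.

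The difference was not even over the bands of symbol numbers. The last band, Olfr1250 to Olfr1280, runs from 89653773 to 111326003 and takes in the 6 genes beyond the gap of 20.8 Mb. No median was taken without them, so the bands do not describe 1 unbroken run. Olfr987 to Olfr1049 had a median log2 fold change of −0.25, with 23 of 38 below 0, and Olfr1050 to Olfr1099 a median of −0.50 and Olfr1100 to Olfr1149 one of −0.44. The medians were −0.68 for Olfr1150 to Olfr1199, −0.79 for Olfr1200 to Olfr1249 and −0.79 for Olfr1250 to Olfr1280. In the last band 25 of 27 tested genes were below 0, and 16 of the 27 (59.3%) were lower at an unadjusted p under 0.05. In the first band the corresponding number was 7 of 38 (18.4%). The shares were 6.2% over all genes and 24.2% over other OR genes. The last-band median minus the first-band median was −0.54 here and below 0 under each of the 20 alternative settings, including each of the 6 that left out a mouse. It ranged from −0.72 to −0.32, and was nearest to 0 with the vomeronasal covariate. The first-band median was −0.10 without control 2 or without Kir2.1 3 and −0.13 without Kir2.1 2. Restricting both bands to members with at least 90% unique windows of 40 bases gave −0.34 over 24 genes and −0.90 over 17 genes.

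Mouse by mouse, the mean log2 difference from the control mean in Olfr1250 to Olfr1280 was −0.71, −0.54 and −1.001 in the Kir2.1 mice, against 0.19, −0.07 and −0.12 in the controls. In Olfr987 to Olfr1049 it was −0.10, −0.32 and −0.35 against −0.18, 0.21 and −0.03, and the groups met there. The gap between the last and the first band was −0.62, −0.21 and −0.65 in Kir2.1 mice and 0.38, −0.28 and −0.09 in controls. The second control thus had a larger gap than the second Kir2.1 mouse, and the gap did not separate the groups in full. Median control levels per kilobase were 19.5 in the first band and 16.2 in the last, and median exon lengths of tested genes were 2706 and 4400 bases. No test was made of the difference between bands, which were compared with earlier results of these data known.

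**Figure D3:**
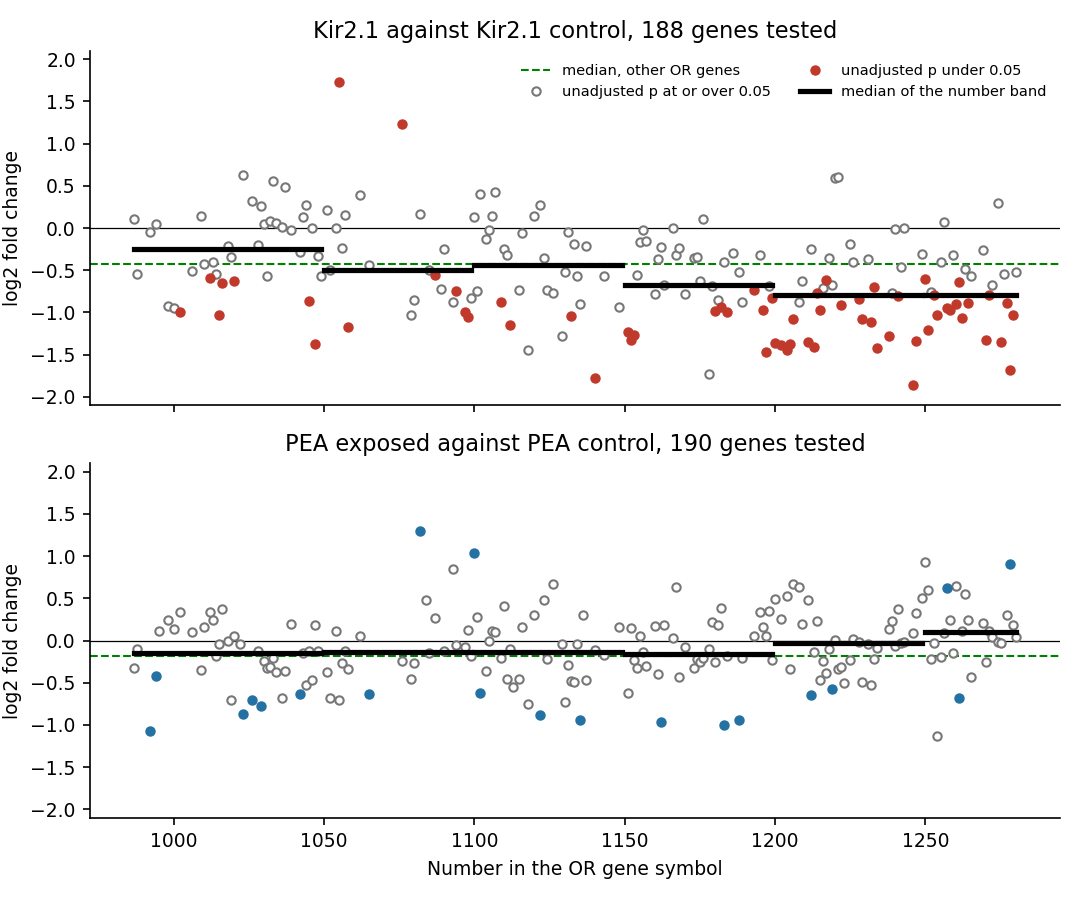
Log2 fold change (y axis) of each tested member against the number in its symbol (x axis), for the Kir2.1 experiment (top, 188 genes) and the PEA experiment (bottom, 190 genes). Filled points have an unadjusted limma p under 0.05, black bars are medians of the number bands, and the dashed line is the median of other OR genes. In the Kir2.1 experiment the 3 bands from Olfr1150 on lie at −0.68 to −0.79, below the first band at −0.25.

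**Figure D4:**
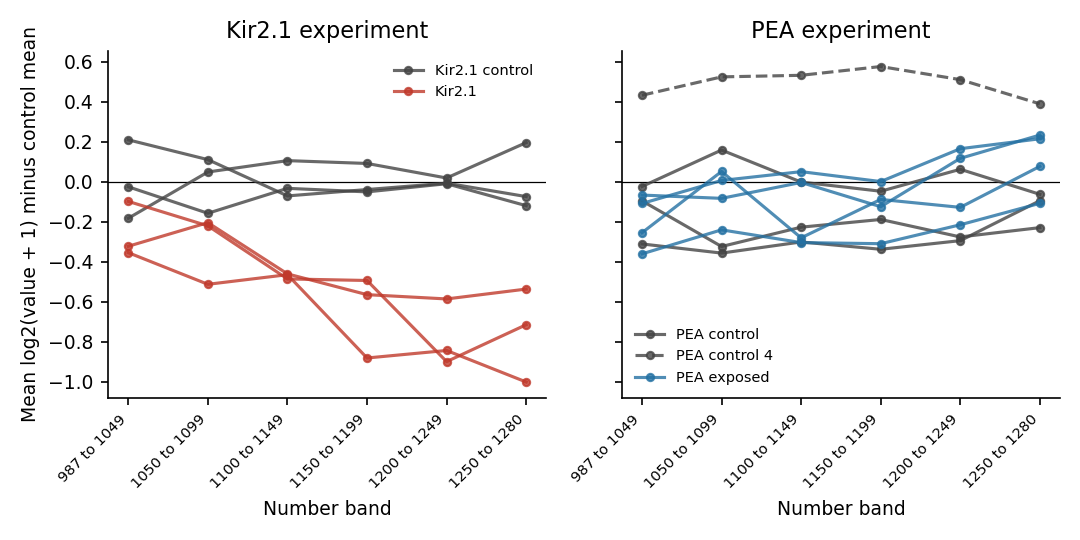
Mean over tested members of log2(value + 1) minus the mean of the controls (y axis) in each number band (x axis), 1 line per mouse, for the Kir2.1 experiment (left) and the PEA experiment (right, PEA control 4 dashed). The Kir2.1 mice drop to between −0.54 and −1.001 in the last band, and PEA control 4 lies 0.39 to 0.58 above the control mean in every band.

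Genes that serve OR choice and transport had a median closer to 0. Of 22 genes on a list of such factors, among them Lhx2 and Ldb1 (the enhancer complex), Ebf1 to Ebf4, Kdm1a, Atf5 and the chaperones Rtp1 and Rtp2, 18 were below 0 in the Kir2.1 mice with a median log2 fold change of −0.10. An unadjusted p under 0.05 was reached by 3 in the lower direction, where the background was 6.2% of all genes, and none passed. They were Adcy3, Rtp1 and Rtp2, named after their values were seen, which are also on the list of mature neuron markers. Omp, the marker used to drive the transgene, was at 31936, 31853 and 36226 in controls and 21062, 21452 and 23516 in Kir2.1 mice. Its log2 fold change of −0.60 ± 0.08 (limma, Benjamini-Hochberg adjusted p = 0.0466) lay close to the median of the OR group, and the markers as a list had a median of −0.41. Centring each mouse on those markers, with Omp left out, raised the median of all genes to 0.44, and the members' median became −0.13. An unadjusted p under 0.05 was then reached by 14 lower members and 11 higher ones, and 14 passed the adjusted threshold by limma, 9 lower and 5 higher. With this centring 0.5% of all genes were called lower and 53.8% higher (0.783% and 60.8% at an unadjusted p under 0.05). Centring on other OR genes raised the median of all genes to 0.48, and the members' median was −0.10. An unadjusted p under 0.05 was reached by 13 lower members and 12 higher ones, and 18 passed the adjusted threshold, 9 in each direction. Here 0.394% of all genes were called lower and 50.5% higher (0.626% and 60.3% at an unadjusted p under 0.05). Both gene sets used for centring were themselves lower in the Kir2.1 mice, so centring on them raised the rest of the table. The shares of members called higher under it are therefore no result about the members.

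The second comparison asked whether exposure to PEA after birth was accompanied by a difference in these receptors. The summed level was 6380, 7890, 6849 and 10971 in the 4 controls (8022 ± 2064, SD, n = 4) and 8140, 6446, 7669 and 7271 in the 4 exposed pups (7381 ± 718, SD, n = 4). The groups overlapped, and PEA control 4 stood above the others, as it did in each number band described below. Of 190 members tested, 114 were below 0, or 60.0%, against 53.5% of all genes, and the median log2 fold change was −0.10 beside −0.18 for other OR genes and −0.02 for all genes. Without PEA control 4 the median was 0.08, and it was also 0.08 when mice were centred on other OR genes, which moved the median of all genes to 0.16. It was 0.01 without PEA exposed 2. Summed markers of mature neurons overlapped, at 35817 to 40658 in controls and 34912 to 40990 in exposed pups, whereas sums of horizontal basal cell markers were higher in each exposed pup (989.3 to 1162 against 739.2 to 908.4, 4 of 4 genes above 0) and those of ensheathing glia and Schwann cells lower (383.9 to 450.4 against 451.2 to 551.7, 2 of 4 genes below 0). The part of these shifts in the OR values was not tested. Of the 22 genes of OR choice and transport, 13 were below 0, with 3 in each direction at an unadjusted p under 0.05. At that limit the shares over all genes were 6.04% lower and 8.93% higher.

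No member passed at an adjusted p under 0.05 by limma, where 0.0346% of all genes were called lower and 0.144% higher. An unadjusted p under 0.05 was reached by 16 members in the lower direction, or 8.42%, against 6.04% of all genes, and by 4 in the higher, or 2.11%, against 8.93%. All exposed pups were below all controls in 7 members, 3.68% against 3.86% of all genes, and above in 1, 0.526% against 5.46%. The lower direction was thus near the background. Without PEA control 4, 7 lower members and 11 higher ones had an unadjusted p under 0.05, and without PEA control 2 or PEA exposed 2 the total was 13 members in place of 20. The shares over all genes were not taken in these fits, so no direction is read from their counts. The separation of all 4 exposed pups from all 4 controls gives p = 0.0286 in the exact permutation test, the smallest for 4 against 4.

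The member with the smallest p-value was Olfr1122 (chr2:87385849-87391930), at 74.2, 156.2, 127.9 and 170.1 in controls and 62.9, 79.3, 58.5 and 72.1 in exposed pups. Its log2 fold change was −0.89 ± 0.25 (SE, n = 4 and 4; limma, Benjamini-Hochberg adjusted p = 0.157), and the groups met because 1 control lay among the exposed pups. In the Kir2.1 experiment the same gene was not lower, at 95.7, 54.6 and 65.0 in controls and 89.0, 75.6 and 88.8 in Kir2.1 mice. Olfr1023 was at 26.3, 27.6, 19.3 and 29.01 against 13.4, 11.4, 15.3 and 13.9 (−0.86 ± 0.26), with no overlap. Olfr1183 was at 43.5, 49.9, 40.9 and 91.6 against 18.8, 25.6, 25.4 and 39.2 (−0.99 ± 0.31), and Olfr1188 at 21.5, 20.9, 25.2 and 32.0 against 7.85, 16.8, 9.64 and 17.8 (−0.94 ± 0.33). These 3 were lower in each exposed pup, with limma adjusted p-values (Benjamini-Hochberg) of 0.179, 0.191 and 0.235.

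Olfr1042 was also separated, at 68.4, 78.4, 72.2 and 134.9 in controls and 63.3, 53.4, 52.5 and 50.1 in exposed pups (log2 fold change −0.63 ± 0.23). Olfr1219 (57.1, 80.9, 89.1 and 86.9 against 59.7, 40.9, 52.2 and 54.9) and Olfr1065 (58.0, 118.1, 83.0 and 76.8 against 44.8, 51.4, 48.8 and 65.3) overlapped by 1 mouse, with log2 fold changes of −0.58 ± 0.20 and −0.63 ± 0.23. The lowest fold changes belonged to less abundant genes. Olfr1254 was at 11.7, 35.9, 48.9 and 27.8 against 9.52, 6.80, 29.3 and 10.9 (−1.13 ± 0.51), and Olfr992 at 17.5, 7.07, 29.99 and 24.9 against 9.94, 5.47, 11.7 and 5.91 (−1.07 ± 0.47). In both genes the groups overlapped, and Olfr992 had an exposed mean under 10.

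Higher values in exposed pups were found for Olfr1278, at 22.8, 22.7, 46.5 and 48.2 in controls and 78.5, 42.7, 70.7 and 64.1 in exposed pups (log2 fold change 0.91 ± 0.31; limma, Benjamini-Hochberg adjusted p = 0.228). Olfr1082 was at 6.73, 5.09, 2.49 and 16.8 against 34.7, 9.19, 13.3 and 19.8 (1.303 ± 0.56), and Olfr1100 at 7.24, 10.7, 13.1 and 29.8 against 29.1, 33.1, 26.9 and 24.8 (1.04 ± 0.39). The groups overlapped in each of these genes. Olfr1082 had a control mean under 10 and was tested only through the exposed group, so its increase is a description. The fourth gene with an unadjusted p under 0.05, Olfr1257, was at 40.7, 38.6, 23.4 and 61.3 against 56.99, 52.0, 59.5 and 74.1 (0.62 ± 0.28). Olfr1167 was the member with all exposed pups above all controls, at 13.6, 12.2, 11.04 and 16.37 against 16.53, 16.43, 32.8 and 21.5, a separation of less than 1 normalized count. Olfr1257 and Olfr1167 were named after their values were seen. Olfr1047, with the widest spread within a group, ranged from 1.199 to 24.6 in controls and from 6.82 to 16.3 in exposed pups.

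**Figure D5:**
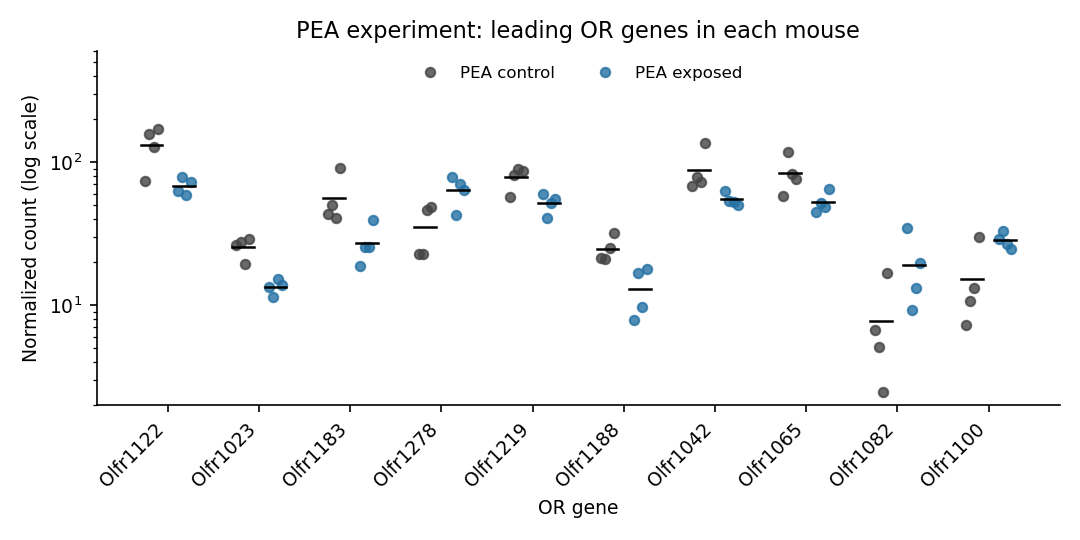
Normalized counts (y axis, log scale) of the 8 members with the smallest p-values and the 2 with the largest increases in the PEA experiment (x axis), in 4 control and 4 exposed pups. Points are mice and bars are group means. Only Olfr1023, Olfr1183, Olfr1188 and Olfr1042 separate the groups, and in Olfr1042, PEA control 4 (134.9) lies far above the other controls (68.4 to 78.4). The genes were picked by these same values, and Olfr1082 had a control mean under 10.

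Olfr1019, the trimethylthiazoline receptor (chr2:85839621-85845483), was at 28.8, 65.0 and 22.6 in controls and 53.6, 16.4 and 22.8 in Kir2.1 mice, and the groups overlapped throughout (log2 fold change −0.34 ± 0.55; limma, Benjamini-Hochberg adjusted p = 0.886). In the PEA experiment it was at 20.9, 24.8, 20.6 and 54.7 in controls and 20.4, 16.7, 15.3 and 14.7 in exposed pups. Each exposed pup was below each control there, by as little as 20.4 against 20.6 (−0.70 ± 0.34; limma, Benjamini-Hochberg adjusted p = 0.364).

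Values of the near-identical pairs varied from pair to pair. Olfr1049 was at 18.8, 14.6 and 20.3 in controls and 13.0, 13.1 and 9.18 in Kir2.1 mice, whereas its 98.7% copy Olfr1051 was at 7.76, 27.6 and 7.52 against 12.3, 20.2 and 10.9. Olfr1057 was at 24.0, 67.6 and 45.2 against 51.4, 45.5 and 43.2, and Olfr1062 at 33.5, 18.3 and 11.1 against 17.2, 23.3 and 39.4. Olfr1080 was at 29.2, 42.4 and 23.1 against 29.1, 38.4 and 3.48, and Olfr1082 at 30.3, 11.8 and 18.7 against 21.9, 20.2 and 21.9. Each Kir2.1 mouse was below each control in Olfr1049, and the groups overlapped in the other genes of these pairs. Reads of all 6 genes could be divided differently by another counting method. Over all tested members, 126 with at least 90% unique windows had a median log2 fold change of −0.62 in the Kir2.1 mice where an unadjusted p under 0.05 was reached by 47 lower genes and no higher one, and the 62 others had a median of −0.55 with 15 and 2. At that limit the shares over all genes were 6.2% lower and 4.93% higher.

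The experiments had separate controls, and their fold changes can be set side by side for the 184 members tested in both. There were 86 members below 0 in both, 63 below 0 in Kir2.1 mice and above 0 in exposed pups, 25 the other way and 10 above 0 in both. The Spearman correlation of the fold changes over these 184 genes was −0.26, a description over genes that share mice and are not independent. Only Olfr1261 was lower at an unadjusted p under 0.05 in both. It was at 131.3, 93.4 and 107.3 against 60.8, 79.2 and 71.8 in the Kir2.1 experiment (log2 fold change −0.64 ± 0.20) and at 47.5, 56.1, 71.6 and 32.6 against 29.4, 44.3, 19.8 and 34.4 in the PEA experiment (−0.68 ± 0.31).

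Over the number bands the experiments differed in order. The last band again took in genes beyond the gap of 20.8 Mb. The PEA medians of the bands were −0.14, −0.14, −0.14, −0.16, −0.03 and 0.10 from the first to the last. Leaving out 1 mouse turned the sign in the 4 middle bands. Without PEA control 4 the medians of Olfr1050 to Olfr1099, Olfr1150 to Olfr1199 and Olfr1200 to Olfr1249 were 0.018, 0.077 and 0.17, and without PEA exposed 4 that of Olfr1100 to Olfr1149 was 0.0087. The band Olfr1200 to Olfr1249 was also above 0 without PEA exposed 2, at 0.066, and the last band was at 0.0050 without PEA exposed 1. The gap between the mean of the last and the first band was 0.32, 0.25, 0.30 and 0.33 in the exposed pups. In the controls it was 0.22, −0.04, −0.13 and −0.04, without overlap but by a narrow margin, whereas in the Kir2.1 mice it was below 0. The control at 0.22, PEA control 1, had the highest mean vomeronasal level of the PEA mice. Likewise, the vomeronasal control 1 of the Kir2.1 experiment was at 0.38. PEA exposed 4, however, had the largest PEA gap at a low vomeronasal level. Neither the gap nor its relation to vomeronasal transcripts was tested, and the bands were chosen after the data were seen. The PEA gap between band medians, 0.25, was above 0 under all 22 alternatives, from 0.19 to 0.45.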

How the data were processed

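Libraries were made from the olfactory epithelium of 14 pups, with poly-A selection and single-end reads of 40 bases in the Kir2.1 experiment and with ribosomal RNA removal, strand and reads of 150 bases in the PEA experiment. The authors estimated transcript levels with Salmon 1.3.0 (GRCm38, Ensembl release 100) and deposited, for each experiment alone, gene values scaled with DESeq2 1.30.0, a normalized signal that is not whole reads. The methods name a reverse-stranded setting, which was given for the Kir2.1 libraries too although these do not mark strand. Totals were 33.0 to 34.2 M and 11.5 to 12.5 M per mouse.

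Members and gene lists were chosen with earlier results of these data known. Groups came from the labels. log2(value + 1) was fitted with limma 3.58.1 (R 4.3.3) with a variance trend, over genes whose mean reached 10, each experiment alone, with Benjamini-Hochberg adjustment at 0.05, two-sided. The study used a count model, which these values do not allow. With that model the paper called more genes in both experiments, OR genes among them, and those OR genes were all lower in the Kir2.1 mice. Few calls by limma here therefore do not show that the other members were unchanged. The script was tested on simulated data. Named members were Olfr1019, those past the threshold, the 8 smallest p-values, the 5 highest control levels per kilobase, the 2 largest fold changes in each direction and the widest spread of each experiment, and the 3 closest pairs. Coding sequences were compared with blastn 2.17.0, since no protein table was used. Gene models were from GENCODE release M21 (GRCm38): 210 members matched by symbol and 5 by position. The methods of the study describe the Kir2.1 controls as littermates of the transgenic pups. The labels do not say which mice shared a litter, and replicate numbers are not said to mark litters. The p-values therefore measure the spread between these mice. In the methods the odor vial stood in the home cage, so PEA was given by cage and not by pup. Which pups shared a cage is not given, so exposure cannot be told apart from cage or litter.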

Additional observations from a re-analysis of the deposited data

Results flagged for a closer look

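In the PEA experiment a mouse was singled out where its gap to the nearest mouse of its group exceeded Dixon's limit for 4 values, as a share of the group's range, and chance singles out about 1 group in 20. Of 94 groups examined, 6 met it, and in 4 of these the mouse was PEA control 4. It was at 54.7 for Olfr1019 (gap 0.8764 of the range), at 122.2 for Olfr1178 (0.8783), at 134.9 for Olfr1042 (0.8496) and at 57.7 for Olfr1051 (0.8362), each above the other controls. PEA exposed 2 was low for Olfr1049, at 2.41 (0.8606), and PEA exposed 3 was high for Olfr1051, at 38.1 (0.8806). Over all 215 members, 18 in the controls and 18 in the exposed pups met the limit. The groups of 3 mice of the Kir2.1 experiment are too small for it.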

How the results depend on the processing

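The Kir2.1 median of −0.57 stayed between −0.65 and −0.52 with each mouse left out, and moved to −0.10 centred on other OR genes and −0.13 centred on mature neuron markers. Olfr1213 was the 1 member called, and the number was 0 with a pseudocount of 5, no filter on low values, a mean of at least 50, no variance trend, quantile normalization, the vomeronasal or Xist covariate, the replicate block, or any mouse left out (0 to 0). It was 2 with the robust fit or median centring (Olfr1140 added), 3 at an adjusted p under 0.10, 14 centred on neuron markers and 18 centred on other OR genes. Members at an unadjusted p under 0.05 numbered 64, but 23 with a mean of at least 50, 25 under either centring, 40 with the vomeronasal covariate and 38 to 57 with a mouse left out. The share over all genes at that limit was taken for the main fit and the centrings only. Genes called over the whole table numbered 70, against 20 without trend, 23 with the vomeronasal and 44 with the Xist covariate, 171 at 0.10, 10088 and 10752 under the centrings, and 23 to 44 with a mouse left out.

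For PEA the count of members called was 0 throughout, the median ranged from −0.20 to 0.08 with a mouse left out, and the 20 members at an unadjusted p under 0.05 became 5 with a mean of at least 50 and 13 to 20 with a mouse left out. For PEA the share over all genes at that limit was taken for the main fit only. Genes called numbered 31, but 52 without filter, 117 with sample weights, 63 centred on neuron markers, 19 with the vomeronasal covariate, 128 at 0.10 and 19 to 43 with a mouse left out. The Kir2.1 value of Olfr1019 turned to 0.13 centred on other OR genes and 0.093 centred on neuron markers, and lay between −0.82 and 0.094 with a mouse left out. The PEA value of Olfr1047 turned to −0.056 with either covariate and ranged from −0.53 to 0.52. The causes were not tested.

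Replicate numbers were shared between groups, but same-numbered mice did not deviate together (correlations of −0.06, −0.01 and 0.16 for Kir2.1 and 0.13, −0.02, −0.05 and 0.10 for PEA). The replicate block gave 9 genes and 0 members called for Kir2.1 and 23 genes and 0 members for PEA, by limma. Band medians and the split by unique windows were added after the data were seen. The median member was at 21.5 to 42.4 normalized counts in a mouse, which limits the precision of single receptors.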
